A study of Homo sapiens with 10 samples.

Results

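The mesendoderm regulators are 10 transcription factor genes, chosen by name: T (Brachyury), EOMES, MIXL1, GSC, LHX1, SOX17, FOXA2, GATA4, GATA6 and HAND1. All 10 were present among the 31017 genes of the RNA-seq count table, and each had its start in a single baited fragment of the promoter capture Hi-C (PCHi-C), so that 10 of 21833 baits belonged to them. Expression and promoter contacts were compared between H9 human embryonic stem cells (ESCs), an established line grown undifferentiated in a defined medium, and neuroectodermal cells (NECs) that were derived from the same line and harvested on day 7. Neither cell type carried a genetic change or a drug treatment, and there were 2 biological replicates of each for each assay. For PCHi-C, ESC replicate 2 combined technical replicates. The labels do not tie an RNA-seq replicate to a PCHi-C replicate.

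In the embryo, Nodal and Wnt signals at the primitive streak switch these genes on as cells leave the pluripotent epiblast. T and EOMES encode T-box factors of the streak, MIXL1, GSC and LHX1 encode homeodomain factors of the streak and the organiser, SOX17, FOXA2, GATA4 and GATA6 act in endoderm, and HAND1 acts in lateral and cardiac mesoderm. Neuroectoderm forms from the same epiblast where Nodal signalling is low, so these genes mark the alternative that NECs did not take. FOXA2, LHX1 and EOMES have later roles in the nervous system too, in the floor plate, in interneurons and in cortical progenitors.

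Reads counted on genes ranged from 19234087 to 25356382 over the 4 libraries. The cell types carried the markers of their labels: 9 of 10 pluripotency genes were lower in NECs and 10 of 10 neuroectoderm genes were higher. The libraries also differed within a cell type. Neural crest genes summed to 229 normalized CPM in NEC replicate 1 and 139 in NEC replicate 2, and the pluripotency genes to 1059 and 1580. Normalized CPM are reads of a gene per 1000000 reads on the genes tested, after TMM scaling between libraries. A sum weighs the most abundant genes most, so these differences need not hold for each gene of a list. Trophoblast and amnion genes summed to between 8.19 and 27.0 CPM in every library. Both ESC libraries were sequenced in a lane different from that of both NEC libraries, so lane and cell type cannot be told apart.

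EOMES and MIXL1 were the members with the most RNA in ESCs and nearly all of it was gone in NECs. Calls required a change of more than 1.5 on the log2 scale and, in edgeR's quasi-likelihood test with Benjamini-Hochberg adjustment, a p under 0.05. Of the 9 members with enough counts to test, 8 were called lower in NECs and 0 higher, where 9.68% of the 17564 genes tested were called lower and 11.4% higher. By adjusted p alone the same 8 were lower, as were 29.7% of all genes. Both ESC libraries lay above both NEC libraries for 9 of 9, and for 41.0% of all genes. Their median log2 fold change was -2.27, against 0.01 over all genes tested. In bulk RNA, a smaller fraction of expressing cells and less RNA per cell cannot be told apart.

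EOMES, a T-box factor needed for definitive endoderm, was counted 289 and 1133 times in ESC replicates 1 and 2 but 10 and 9 times in NEC replicates 1 and 2. The levels were 15.3 and 45.8 CPM in ESCs against 0.468 and 0.365 CPM in NECs. The lower ESC library was thus far above both NEC libraries, although the ESC libraries differed 2.99-fold from each other. The log2 fold change was -6.20 ± 0.68 (SE; edgeR adjusted p = 0.000517).

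MIXL1, a paired-type homeodomain factor downstream of Nodal, was at 10.2 and 23.3 CPM in ESCs and at 0.234 and 0.365 CPM in NECs, from 193, 575, 5 and 9 counts. The groups did not overlap. It fell by 5.77 on the log2 scale, with an SE of 0.55 (edgeR adjusted p = 0.000304). In the count table MIXL1 lies inside the listed span of PARP1 on the other strand (chr1:224102741-226595780), and reads were counted without regard to strand.

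T, GSC and LHX1, the other streak and organiser genes, were far less abundant. T was counted 20 and 70 times in ESCs and 13 and 8 times in NECs, or 1.06 and 2.83 CPM against 0.608 and 0.324 CPM. The ESC libraries were above the NEC libraries, but ESC replicate 1 exceeded NEC replicate 1 by only 7 reads. The log2 fold change of T was -2.09 ± 0.59 (SE; edgeR adjusted p = 0.020). GSC, a repressor of the organiser, was at 1.85 and 4.57 CPM in ESCs and at 0.608 and 0.527 CPM in NECs. It fell by 2.51 on the log2 scale, with an SE of 0.51 (edgeR adjusted p = 0.00580). LHX1, a LIM homeodomain factor, was at 1.38 and 2.67 CPM in ESCs against 0.468 and 0.608 CPM in NECs. It too fell without overlap (edgeR adjusted p = 0.00957), with a log2 fold change of -1.91 and an SE of 0.44. LHX1 shares its start region with the non-coding gene RP11-445F12.2, which had between 0 and 5 counts.

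**Figure D1:**
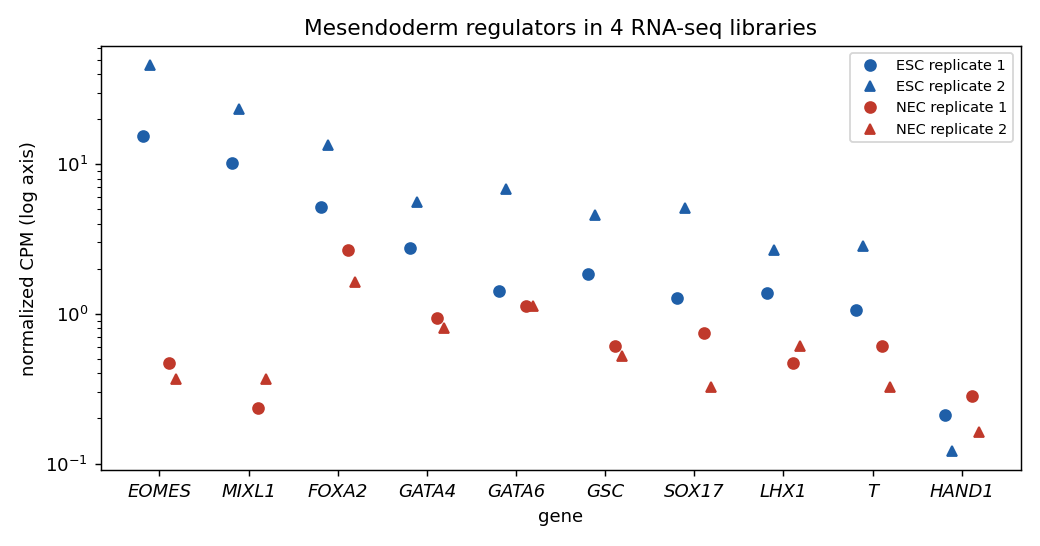
Normalized CPM (log axis) of the 10 genes in each RNA-seq library, ordered by mean level in ESCs; circles are replicate 1 and triangles replicate 2, blue for ESCs and red for NECs. Both ESC points lie above both NEC points for 9 of the 10 genes, HAND1 being the exception, and the ESC triangle lies above the ESC circle for the same 9.

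The endoderm genes followed the same order of libraries. FOXA2, a pioneer factor of endoderm and of the floor plate, kept the highest level in NECs, with 2.67 and 1.62 CPM there against 5.14 and 13.4 CPM in ESCs. It was called lower (edgeR adjusted p = 0.00987), at -2.13 ± 0.50 (SE) on the log2 scale. SOX17, which drives definitive endoderm, was at 1.27 and 5.10 CPM in ESCs and at 0.749 and 0.324 CPM in NECs. It passed at an edgeR adjusted p of 0.0213, with -2.61 ± 0.74 (SE) on the log2 scale. GATA4, a zinc finger factor of endoderm and heart, was at 2.75 and 5.62 CPM against 0.936 and 0.811 CPM in NECs, and its log2 fold change was -2.27 ± 0.42 (SE; edgeR adjusted p = 0.00396). GATA6, its paralogue in primitive and definitive endoderm, did not pass: 1.43 and 6.88 CPM in ESCs stood against 1.12 and 1.13 CPM in NECs, a change of -1.90 ± 0.69 (SE) on the log2 scale (edgeR adjusted p = 0.0506). GATA6 was separated from NECs almost entirely by ESC replicate 2, since ESC replicate 1 with 27 counts was close to the NEC libraries with 24 and 28. The antisense gene GATA6-AS1 overlaps the start of GATA6 and LNCDAT that of T, and without strand their reads cannot be told apart from those of the members.

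HAND1, a basic helix-loop-helix factor of mesoderm and trophoblast, was counted between 3 and 6 times in each library and was not tested. With no filter on low counts its log2 fold change was 0.42 (edgeR adjusted p = 0.719). No difference in HAND1 was detectable at this depth.

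Compared per length, on the scale of CPM per kb of exon, the mean ESC levels ran from 8.36 for EOMES and 8.23 for MIXL1 through 3.41 for FOXA2, 2.82 for GSC, 1.36 for SOX17, 1.09 for GATA6, 0.943 for GATA4, 0.747 for T and 0.413 for LHX1 to 0.0980 for HAND1. Across the ESC libraries the ranges of most neighbours in this order overlapped. The exceptions were MIXL1 (5.02 to 11.4), just above FOXA2 (1.89 to 4.92), and LHX1, at 0.281 in its lower library, above HAND1 in both. Within ESC replicate 2 the order was the same as that of the means. Within ESC replicate 1 it differed only in that MIXL1 stood above EOMES, GATA4 above SOX17 and GATA6, and T above GATA6. In NECs the order changed. FOXA2 led with a mean of 0.789 CPM per kb, followed by GSC with 0.498 and GATA6 with 0.297, and these did not overlap each other. EOMES, at 0.114, was next to last in NECs, but the 7 lowest genes all lay between 0.110 and 0.229 and overlapped their neighbours.

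The ESC replicates differed in these genes far more than in the genome at large. All 9 tested members were higher in ESC replicate 2, by a median of 1.15 in log2(CPM + 0.5), while the median over all 17564 genes was 0.00. GATA6 had the largest such difference of all genes tested (1.93), SOX17 ranked 3 (1.66), EOMES 4 (1.55) and FOXA2 11 (1.3). The difference exceeded 1 for 7 of 9 members and for 0.279% of all genes. LHX1 had the smallest, 0.76. Between the NEC replicates 0 of the 9 members differed by more than 1, and 3 were higher in replicate 2.

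**Figure D2:**
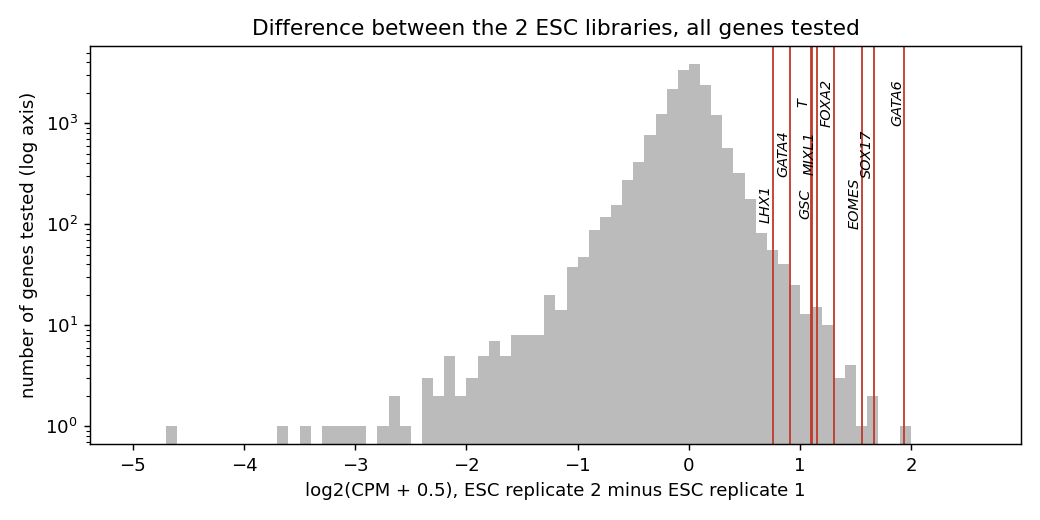
Histogram of the difference in log2(CPM + 0.5) between ESC replicate 2 and ESC replicate 1 over the 17564 genes tested (0.1 per bin, log count axis), with a red line at each of the 9 tested members. The members lie between 0.76 and 1.93, on the right flank of a distribution centred at 0.00.

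The split was not shared by other lineage lists. Pluripotency genes had a median difference of 0.08, the other streak and mesoderm genes of 0.07 and the other endoderm genes of 0.05. It was seen in some genes of the pathway that feeds the members: NODAL was at 68.9 CPM in ESC replicate 1 and 162 CPM in ESC replicate 2, the related ligand GDF3 at 14.0 and 34.9 CPM, and CER1, a secreted Nodal antagonist of anterior endoderm, at 53.2 and 114 CPM. LEFTY1 and LEFTY2, feedback inhibitors of Nodal, did not show it, with 382 and 361 CPM for LEFTY1 and 240 and 251 CPM for LEFTY2. The summed level of the 10 members was 40.6 and 110 CPM in ESCs, by replicate, against 8.14 and 6.24 CPM in NECs.

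The calls depended on this library. Without ESC replicate 2, 4 of the 9 members were called lower in NECs (EOMES, MIXL1, GATA4 and GSC), against 8.51% of 17907 genes tested. The median log2 fold change of the members was then -1.35. The log2 fold change of GATA6 was -0.35 (edgeR adjusted p = 0.599), that of T -1.20 (0.183), that of SOX17 -1.26 (0.160), and that of LHX1 -1.35 (0.0938). FOXA2 kept an adjusted p of 0.0340 with a log2 fold change of -1.27. EOMES at -5.20 and MIXL1 at -5.06 stood apart from the rest in either case. Without ESC replicate 1, all 9 were called. Without NEC replicate 2, T (-1.70, edgeR adjusted p = 0.0723) and SOX17 (-2.12, 0.0712) were not. With a lone library, its spread is taken to be that of the other cell type.

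**Figure D3:**
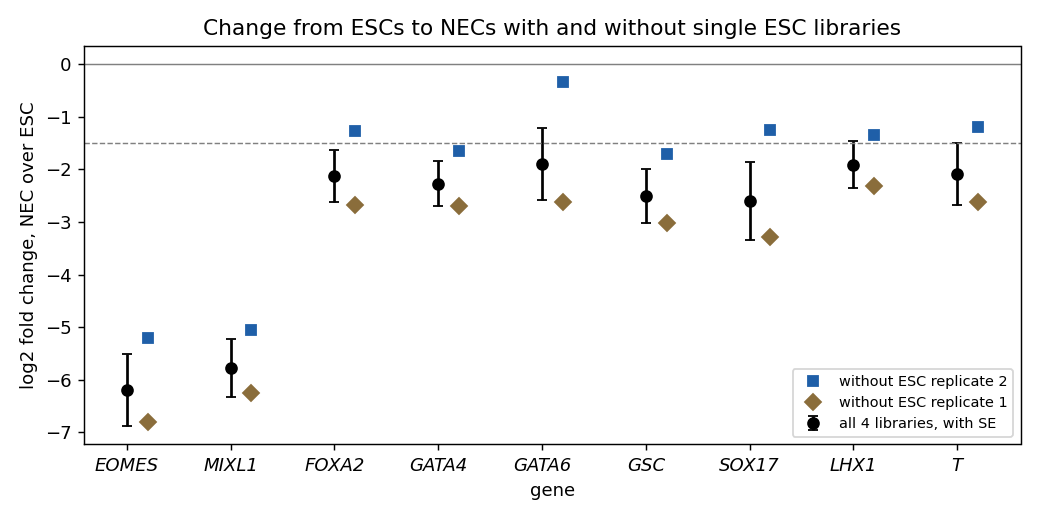
Log2 fold change of NECs over ESCs for the 9 tested genes: black points with SE for all 4 libraries, blue squares without ESC replicate 2 and brown diamonds without ESC replicate 1; the dashed line marks the call threshold of -1.5. All values are negative, and 5 of 9 blue squares (T, SOX17, FOXA2, LHX1 and GATA6) lie above the dashed line.

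Several signalling genes around the members fell further than any member. Of 14 genes for Nodal, Wnt and BMP inputs, 6 were called lower and 1 higher, with a median log2 fold change of -0.38 against 0.01 for all genes tested. The greatest fall was that of LEFTY1, from 382 and 361 CPM to 0.140 and 0.405 CPM (log2 fold change -10.34 ± 0.23 SE, edgeR adjusted p = 5.87e-06). LEFTY2 (-9.20), NODAL (-7.96), GDF3 (-7.10), the Nodal co-receptor TDGF1 (-6.49) and FOXH1 (-2.92), the forkhead partner of SMAD2 and SMAD3 that binds EOMES, GSC and MIXL1 regulatory DNA in model systems, were the others that fell. SMAD3 rose, from 34.9 and 29.97 CPM to 137 and 133 CPM (log2 fold change 2.06 ± 0.11 SE, edgeR adjusted p = 3.79e-05), whereas SMAD2 was at -0.07 ± 0.10 (edgeR adjusted p = 0.534).

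Other genes of the same germ layers did not move as a block. Of 10 other endoderm genes, 9 were tested, 3 were called lower and 4 higher. CER1 fell most (-5.62), with FOXA3 (-2.02) and HHEX (-1.60), while FOXA1 (4.52), AFP (3.0), CXCR4 (2.08) and HNF4A (1.71) rose. FOXA1, AFP and CXCR4 are also expressed outside endoderm. Of 12 other streak and mesoderm genes 6 were tested: KDR, the receptor for vascular endothelial growth factor, fell from 154 and 219 CPM to 14.7 and 21.3 CPM (-3.37), and MEOX1 rose at least 15.4-fold over a floor of 3 counts per library in ESCs. MSGN1 had 0 counts in every library and FOXF1 at most 1.

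Close paralogues of the members took the opposite course in places. LHX5, the paralogue of LHX1 that is expressed in the early neural plate, was counted 5 and 0 times in ESCs and 495 and 440 times in NECs, which is 7.40 ± 0.57 (SE) on the log2 scale (edgeR adjusted p = 0.000140). GATA2 rose by 3.97 on the log2 scale and FOXA1 by 4.52, whereas FOXA3 fell. Of 14 paralogues, 7 were tested, 3 were called higher and 1 lower. TBR1 and TBX21, the paralogues nearest to EOMES, had 0 counts in ESCs and at most 4 in NECs. Of 12 neural genes that are expressed with FOXA2, LHX1 or EOMES in the nervous system, 7 were tested and 5 were called higher, among them LHX5, PAX8 (at least 126-fold), PAX2 (at least 31.7-fold) and EN1 (at least 22.3-fold). SHH, the floor plate signal expressed beside FOXA2, was not called (-0.41 ± 0.71 SE, edgeR adjusted p = 0.640) and NKX2-2 had at most 1 count in any library.

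The order of the members in PCHi-C was not their order in RNA: LHX1 had the most contacts and HAND1 the highest scores, although both had little RNA. Each contact is a pair of HindIII fragments, a baited promoter and a promoter-interacting region (PIR), with a CHiCAGO score of at least 12. The score is a negative log p-value weighted by distance, and no read numbers accompany it, so its depth is unknown. Positions are in GRCh37, and distances run between fragment midpoints. All PIRs of the 10 promoters lay on the promoter's own chromosome.

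The promoter sequences of 4 members are shown because their genes span the range from the largest fall (EOMES, MIXL1) through a change that rested on ESC replicate 2 (GATA6) to a gene with next to no RNA and strong contacts (HAND1). They come from RefSeq (GRCh38.p14), cover 250 bases before and 30 after the transcript start on the gene's own strand, and each had a single exact match in GRCh37, inside the member's bait. RefSeq entries matched 6 of the 10 members, with 2 for T and so 7 in all. FOXA2, LHX1, SOX17 and GATA4 had no entry among these. The EOMES window was chr3:27763785-27764064 on the minus strand, that of MIXL1 chr1:226411115-226411394 on the plus strand, that of GATA6 chr18:19749300-19749579 on the plus strand and that of HAND1 chr5:153857758-153858037 on the minus strand. Capitals mark the TATA, SMAD and FOXH1 motifs spelled out after the sequences, on either strand.
EOMES: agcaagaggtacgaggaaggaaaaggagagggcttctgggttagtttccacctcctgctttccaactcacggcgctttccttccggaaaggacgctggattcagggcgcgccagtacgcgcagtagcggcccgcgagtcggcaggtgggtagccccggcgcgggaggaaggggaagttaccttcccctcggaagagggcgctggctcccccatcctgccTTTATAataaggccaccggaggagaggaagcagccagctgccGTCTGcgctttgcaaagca
MIXL1: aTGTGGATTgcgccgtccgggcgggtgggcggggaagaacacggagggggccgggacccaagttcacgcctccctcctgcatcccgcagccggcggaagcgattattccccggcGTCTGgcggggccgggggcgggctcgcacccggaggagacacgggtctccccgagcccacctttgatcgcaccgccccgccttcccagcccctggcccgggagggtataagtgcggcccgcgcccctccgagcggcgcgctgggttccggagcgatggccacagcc
GATA6: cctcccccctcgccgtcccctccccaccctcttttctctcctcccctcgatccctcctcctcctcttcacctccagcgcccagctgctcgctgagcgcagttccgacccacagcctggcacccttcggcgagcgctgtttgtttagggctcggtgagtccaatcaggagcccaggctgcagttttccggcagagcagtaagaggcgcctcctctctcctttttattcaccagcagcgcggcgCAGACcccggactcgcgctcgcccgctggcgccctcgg
HAND1: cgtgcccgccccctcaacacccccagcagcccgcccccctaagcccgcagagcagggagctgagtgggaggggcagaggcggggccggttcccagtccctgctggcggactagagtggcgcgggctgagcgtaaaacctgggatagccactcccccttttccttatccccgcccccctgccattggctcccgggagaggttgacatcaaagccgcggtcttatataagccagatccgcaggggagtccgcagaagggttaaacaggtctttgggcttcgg

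Motifs were searched on both strands in windows of 280 bases, for the members and for all promoters. The FOXH1 motif AATCCACA lay near the upstream end of the MIXL1 window. It was in 1 of the 7 member entries and in 0.777% of the 35116 RefSeq promoters. The SMAD box CAGAC was in 5 of 7 entries and in 42.7% of promoters. The TATA motif TATAAA was in 3 of 7 entries, EOMES among them, and in 11.2% of promoters. The T-box core AGGTGT was in 0 of 7 entries and in 10.6% of promoters. The zinc finger motif AGATAA was likewise in 0 of 7 entries and in 9.95% of promoters. The homeodomain motif TAATCC, typical of GSC, was in 0 of 7 entries and in 6.07% of promoters. With only 7 entries, the absence of motifs with such shares says little. None of these letters in a window shown overlapped another motif. The full MIXL1 entry of 300 bases held 37 CpG dinucleotides, more than 88.7% of all promoters, and GC made up 73.3% of it; the median promoter held 14 CpG dinucleotides.

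LHX1, with little RNA in either cell type, had the most PIRs of the members: 51 in the merged ESC list and 49 in the merged NEC list. That placed it above 99.8% of protein-coding promoters that had any PIR in each cell type. The ESC replicates had 28 and 22 PIRs. The NEC replicates had 37 and 16, and differed by more than the cell types did. Of the merged PIRs, 40 were in both cell types, and 9 were called in all 4 replicates. Most lay on 1 side: 36 of 51 in ESCs and 37 of 49 in NECs were at lower coordinates than the promoter, out to 321 kb. The highest score in ESCs was at chr17:35295938-35301809, 7.56 kb away in the body of LHX1 itself (30.37 in ESCs, 22.93 in NECs). In NECs it was at the intergenic fragment chr17:35057599-35065399, 230 kb away, with 27.00 against 18.36 in ESCs. Both fragments were called in all 4 replicates. The fragment chr17:35198456-35201670, 91.2 kb away, was called in both ESC replicates (13.91 and 14.26) and no NEC list. Those called in both NEC replicates and no ESC replicate, chr17:35003997-35005374 and chr17:35145900-35149091, were in the merged ESC list at 12.39 and 13.94.

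HAND1, counted at most 6 times in any library, had 25 merged PIRs in ESCs and 21 in NECs, more than 97.3% and 95.9% of such promoters. The highest scores of any member were on its contact with chr5:153987848-153994292, an intergenic fragment 133 kb away, with 37.73 in ESCs and 36.56 in NECs. The replicate scores were 18.17 and 27.97 in ESCs and 19.58 and 25.25 in NECs, and they overlapped. The fragment next to it, chr5:153986011-153987847, scored 36.42 and 30.98 and was also called in all 4 replicates, as was chr5:153959545-153967608, 105 kb away (19.64 and 16.78). Called in both ESC replicates but no NEC replicate were chr5:153863170-153870080, 8.49 kb away (12.76 and 13.07), chr5:154164993-154170133 in an exon of LARP1 (12.27 and 14.88) and chr5:154200758-154211525 in FAXDC2 (12.26 and 12.93). The first and the third were in the merged NEC list too, at 15.38 and 12.30. The single replicates of HAND1 had 11 and 15 PIRs (ESCs) and 12 and 4 (NECs).

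**Figure D4:**
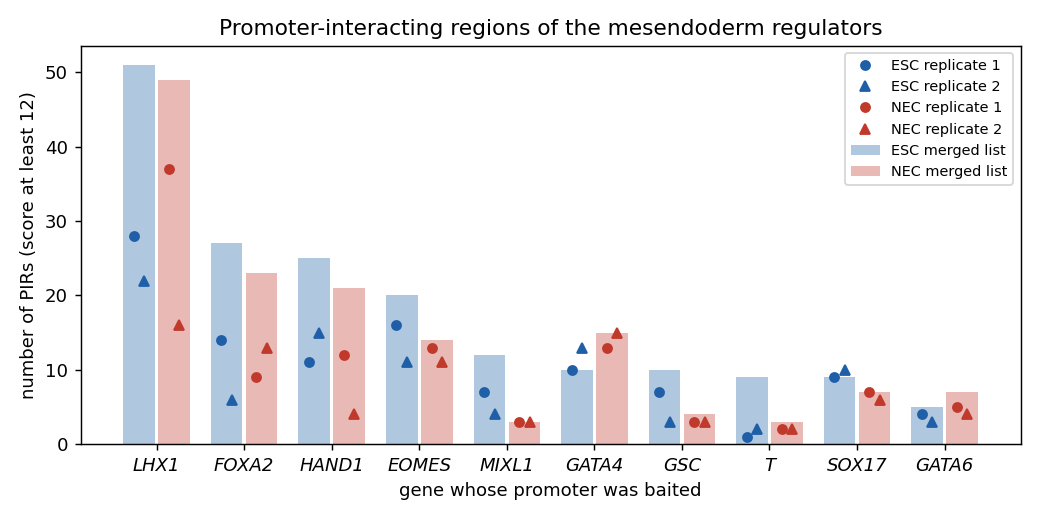
Number of PIRs at a score of at least 12 for each baited promoter; bars are the merged lists, circles and triangles are replicates 1 and 2, blue for ESCs and red for NECs. LHX1 stands above the others in both cell types, and the replicate points of ESCs lie above those of NECs without overlap for MIXL1 and SOX17.

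EOMES contacts called from its own bait all lay on the same side in the merged lists. Its 20 ESC PIRs and 14 NEC PIRs were at higher coordinates, up to 627 kb away, and 14 of 20 and 13 of 14 lay in CMC1 or AZI2. A fragment with the start of TOP2B on the other side, 2058 kb away, was called in NEC replicate 2 alone (12.22). The highest score in both cell types was on chr3:28275421-28285255, 517 kb away, which holds the start of CMC1, a mitochondrial protein gene. It scored 19.27 and 24.58 in ESC replicates 1 and 2, 19.53 and 17.24 in NEC replicates 1 and 2, and 28.51 and 23.13 in the merged lists. The contact was also called from the CMC1 bait (20.85 in ESCs, 17.58 in NECs). Among other baits that called the EOMES fragment in the merged lists was that of SLC4A7, 242 kb away (13.93 in ESCs, 14.26 in NECs). The NEK10 bait, 353 kb away, called it in ESCs (12.58). A total of 3 EOMES PIRs, the others being chr3:28364229-28367856 and chr3:28367857-28377438 in AZI2, were called in all 4 replicates, and 10 were in both merged lists. Neither the ESC replicates alone nor the NEC replicates alone held any replicated EOMES PIR.

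MIXL1 had 12 merged PIRs in ESCs but 3 in NECs, and shared 2 between them. The replicate lists held 7 and 4 in ESCs and 3 and 3 in NECs, without overlap. Numbers of both ESC replicates lay above those of both NEC replicates for 12.5% of protein-coding promoters. Of the MIXL1 PIRs, 0 were called in both ESC replicates and neither NEC replicate. Its strongest PIR, chr1:226311190-226313656, an intergenic fragment 96.5 kb away, scored alike in the cell types (19.65 and 20.29) and was called in all 4 replicates. The most alike PIR set was that of LIN9, with 12 shared fragments of 18 for MIXL1 and 24 for LIN9 (Jaccard index 0.40, over all lists). The bait of ACBD3 called the MIXL1 fragment in all 4 replicates, with merged scores of 19.90 in ESCs and 14.92 in NECs.

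T and GSC had few replicated PIRs from their own baits. T had 9 merged PIRs in ESCs and 3 in NECs. Its single replicates had 1 and 2 (ESCs) and 2 and 2 (NECs), so the merged difference was not in the replicates. Its top PIR, chr6:166812979-166818202, was 229 kb away with 15.32 in ESCs and 15.46 in NECs, and was called in 3 of 4 replicates. The bait of BRP44L, 211 kb away, called the T fragment in both ESC replicates (13.33 and 12.65, merged 15.04) and in no NEC list. GSC had 10 and 4 merged PIRs, with 7 and 3 in the ESC replicates against 3 and 3 in the NEC replicates. Its top ESC PIR, chr14:95502592-95507109, scored 15.22, and was seen in 1 ESC replicate. Its top NEC PIR, chr14:95962912-95990398 at the start of SYNE3, scored 16.49 and was seen in 1 NEC replicate. The fragment with the start of CLMN, chr14:95783170-95792804, 552 kb away, was called in both NEC replicates (12.45 and 12.62) and neither ESC replicate. The bait of DICER1, 387 kb away, called the GSC fragment in ESC replicate 1 (14.17) and in both NEC replicates (14.01 and 15.31).

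GATA6, like LHX1, had a contact called in all 4 replicates, in the ESC replicates alone and in the NEC replicates alone. The merged lists held 5 of its PIRs for ESCs and 7 for NECs, with 3 in common. The fragment chr18:19755209-19758341, 7.11 kb away inside GATA6, was called in both ESC replicates (14.49 and 12.86, merged 22.71) and in no NEC list. A distal pair of adjacent fragments behaved differently. The nearer, chr18:20140699-20143605, 392.5 kb away, was called in all 4 replicates, with 16.35 and 13.94 in ESCs and 21.85 and 19.08 in NECs, and merged scores of 19.14 and 28.01. The farther, chr18:20143606-20149025, 397 kb away, was called in both NEC replicates (22.03 and 17.88, merged 26.87) and in no ESC list. A single HindIII site divides them, shown because it sets the border between a shared and an NEC call. The sequence is GRCh37 chr18:20143580-20143635 on the plus strand, with the HindIII site in capitals.
Border of the GATA6 distal fragments: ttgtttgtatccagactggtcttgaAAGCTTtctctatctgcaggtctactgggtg

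FOXA2 had the longest median distance of the members in each single replicate, 769 to 872 kb, but 211 kb in both merged lists. The merged lists held 27 of its PIRs for ESCs and 23 for NECs, and 13 were common to them. Single ESC replicates had 14 and 6, and single NEC replicates 9 and 13. Its contact with chr20:21688598-21691622, in an exon of PAX1 872 kb away, was called in all 4 replicates and scored 20.71 in ESCs and 19.77 in NECs. PAX1 is a paired box gene of sclerotome and pharyngeal pouches. The top NEC PIR was intergenic, chr20:22312950-22321605, 245 kb away, with 20.54 against 16.55 in ESCs, and was called in 1 replicate of each. The bait of RP3-322G13.5, 778 kb away, called the FOXA2 fragment in all 4 replicates, with merged scores of 18.04 in ESCs and 24.14 in NECs. An intergenic fragment at chr20:22360363-22375480, 194 kb away, was called in both NEC replicates (12.37 and 12.86) and no ESC replicate, yet its merged scores were 15.81 in NECs and 15.20 in ESCs. FOXA2 was the only member with a contact to a gene of the fixed lists: its bait and that of NKX2-2, a homeodomain factor of the ventral neural tube, were joined over 1067 kb. From the FOXA2 bait the score was 12.07 in ESC replicate 2, 19.31 in NEC replicate 2 and 14.51 in the merged NEC list. From the NKX2-2 bait it was 12.52 in ESC replicate 2, 12.11 and 18.46 in the NEC replicates, and 12.03 and 16.65 in the merged ESC and NEC lists. With a score at the threshold of 12 in ESCs, the contact was called in 3 of 4 replicates from 1 end or the other. No member contacted another member.

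SOX17 had 9 merged PIRs in ESCs and 7 in NECs, and 9 and 10 in the ESC replicates against 7 and 6 in the NEC replicates, without overlap. Of the SOX17 PIRs, 0 were called in both ESC replicates and neither NEC replicate. Its top ESC PIR, chr8:55378079-55380570, lay 8.33 kb away and scored 22.27 in ESCs and 14.71 in NECs. It was called in both ESC replicates (15.82 and 15.25) and in 1 NEC replicate (12.04). The top NEC PIR, chr8:55078526-55082928, 290 kb away, was called in all 4 replicates with merged scores of 21.20 and 20.06. A fragment with the start of MRPL15 was called in both NEC replicates (12.59 and 12.09) and no ESC replicate.

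GATA4, like GATA6, had more merged PIRs in NECs, 15 against 10 in ESCs with 8 shared, but the replicates held 10 and 13 in ESCs and 13 and 15 in NECs and met at 13. Its promoter contacted other promoters more than most members did: 7 of 10 PIRs in ESCs and 8 of 15 in NECs were baits themselves. The fragment with the start of FAM167A, chr8:11330802-11342964, 199 kb away, scored 30.44 in ESCs and 22.53 in NECs, and the neighbouring fragments chr8:11408759-11412168 and chr8:11412169-11420464 in BLK scored 28.64 and 22.87, and 26.58 and 21.09. These 3 were called in all 4 replicates. In NECs the top PIR was chr8:11541103-11549255 in a GATA4 intron, 9.39 kb away, with 25.70 against 16.96 in ESCs, from 15.92 and 19.04 in the NEC replicates and 15.91 in 1 ESC replicate. A fragment with the start of SLC35G5, chr8:11185481-11190965, was called in both NEC replicates (12.62 and 12.71) and no ESC list.

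All 243 fragments checked, those of the members outside chromosome 8, began and ended at a HindIII site and had none inside. A contact below a score of 12 is absent from the lists, so a contact that is called in only 1 cell type may have been just under 12 in the other.

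**Figure D5:**
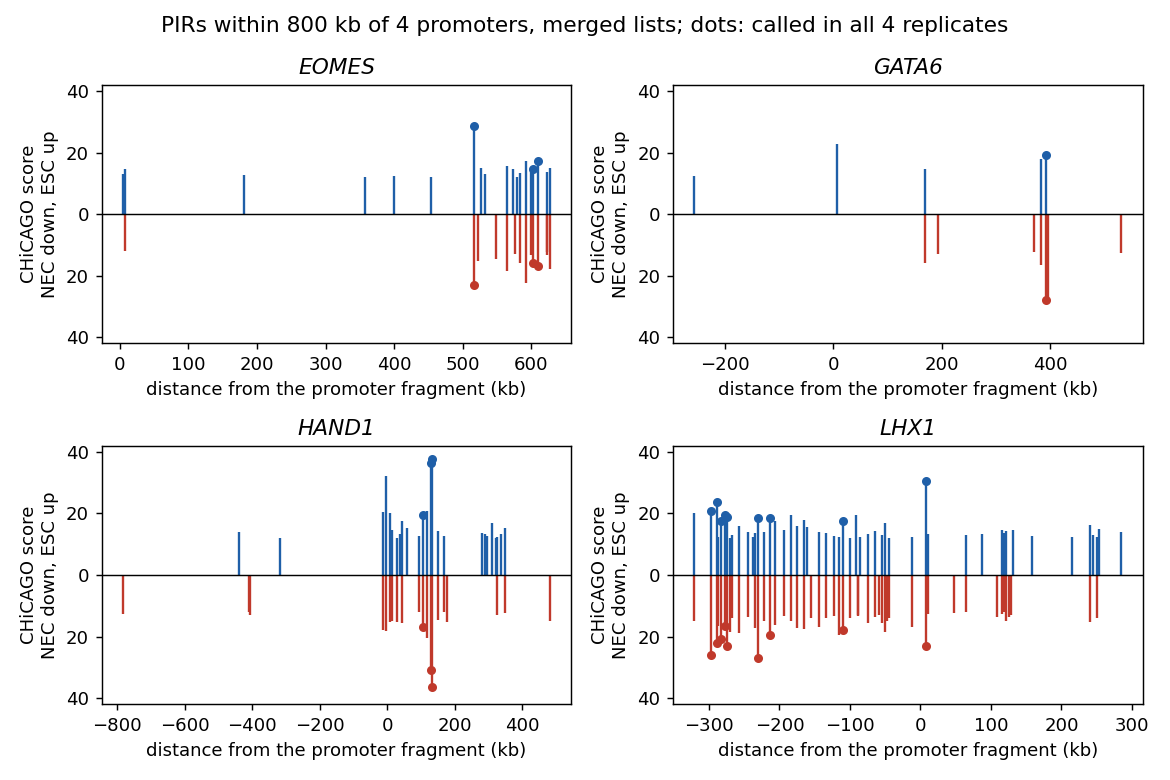
CHiCAGO scores in the merged lists against distance from the promoter fragment (kb) for EOMES, GATA6, HAND1 and LHX1, within 800 kb; blue lines up are ESCs, red lines down are NECs, and dots mark PIRs called in all 4 replicates. The calls from the EOMES bait lie on 1 side and gather beyond 500 kb. The GATA6 panel shows the ESC line next to the promoter with no NEC line below it. The tallest lines are those of HAND1 at 133 kb.

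Summed over the 10 promoters there were 178 PIRs in ESCs and 146 in NECs. By replicate the sums were 107 and 89 (ESCs) against 104 and 77 (NECs), and these overlapped. At a score of at least 15 the order turned, with 61 PIRs in ESCs and 68 in NECs. The 97 shared PIRs were 54.5% of the ESC list (95% Wilson interval 47.2 to 61.6, counting error only) and 66.4% of the NEC list (58.4 to 73.6). Over the 15067 baits with a protein-coding start the shares were 45.0% and 44.7%. LHX1 alone supplied 40 of the 97. The median distance was 203 kb (ESCs) and 201 kb (NECs), against 188 and 211 kb over all those baits. A PIR was itself a bait in 9.55% of ESC and 13.7% of NEC contacts of the members, and in 32.4% and 32.3% of those of all protein-coding baits. About the same share of PIRs was intergenic in ESCs (51.1%) and NECs (51.4%).

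Of the 193158 contacts of all protein-coding baits in any replicate list, 3.04% were in all 4. From the members' own baits there were 223 such contacts, and 22 were in all 4 (9 of LHX1, 0 of T and of GSC). A total of 5 were in both ESC replicates and neither NEC replicate (3 of HAND1, 1 each of GATA6 and LHX1; background 2.64%), and 7 in both NEC replicates and neither ESC replicate (2 of LHX1, 1 each of GSC, SOX17, FOXA2, GATA4 and GATA6; background 2.63%). Of these, 3 and 4 were also missing where the opposite cell type's replicates had been merged. The 5 and the 7 were close to what the background shares give for 223 contacts. EOMES, MIXL1 and T had no PIR of either kind, out of 28, 12 and 5 from their baits in any replicate list. With so few contacts and such low background shares, that says little about these genes. PIR numbers of ESC replicates lay wholly above those of NEC replicates for 2 of 10 promoters, MIXL1 and SOX17, where 12.5% of protein-coding promoters did so. The reverse held for 0 of 10 and for 13.7%. With 2 replicates against 2, no permutation test of these numbers can reach 0.05.

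The promoters nearest in PIR set were mostly neighbours on the chromosome. Beside LIN9 for MIXL1, the Jaccard index over all lists was 0.29 for GATA4 and DEFB135, 0.27 for LHX1 and AATF, 0.22 for HAND1 and LARP1, 0.17 for FOXA2 and NXT1 and for T and BRP44L, 0.14 for SOX17 and FAM150A, 0.11 for EOMES and NEK10 and 0.09 for GSC and C14orf132. GATA6 had no promoter that shared 3 PIRs with it.

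None of the tested genes that start within 100 kb of a member was called in either direction. Over all genes tested, 11.4% were called higher in NECs and 9.68% lower. The tested neighbours were few, so the absence of calls among them says little. Non-coding genes at the LHX1 and GATA6 starts had too few counts to test but lay lower in NECs: RP11-445F12.1, 0.812 kb from the LHX1 start, had 15 and 10 counts in ESCs and 2 and 3 in NECs, at least 4.58-fold lower over a floor of 3 counts per library. AC091588.1, 0.475 kb from the GATA6 start, had 4 and 8 counts against 1 and 1 (at least 2.04-fold lower). ACBD3, a Golgi protein gene 36.9 kb from MIXL1, was at -0.84 ± 0.10 (SE) on the log2 scale (edgeR adjusted p = 0.000796), under the threshold for a call. AATF, 11.4 kb from LHX1, was at -0.55 ± 0.10 (SE; edgeR adjusted p = 0.00327). LINC00261, a non-coding RNA that starts in the FOXA2 bait, was counted 26 and 85 times in ESCs and 129 and 109 times in NECs, which is 1.09 ± 0.43 (SE) on the log2 scale (edgeR adjusted p = 0.0635), against the direction of FOXA2. Its ESC replicates differed in the same sense as those of FOXA2.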

How the data were processed

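The genes and lists were chosen with earlier results of these data known. Per the labels and the study's methods, RNA-seq reads were trimmed, aligned to GRCh37 with TopHat2 (2.0.8b and Bowtie 1.0.0 in the submitters' processing notes) and counted per Ensembl gene without regard to strand, and the deposited values are raw counts. For PCHi-C the authors mapped read pairs with HiCUP, removed duplicates and called contacts between HindIII fragments with CHiCAGO, singly by replicate and jointly over the replicates of a cell type (the merged lists). The deposited scores start at 12. Conventional Hi-C was not analysed here.

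Counts were analysed with edgeR 4.0.16 in R 4.3.3 (filterByExpr with a minimum count of 10, TMM, quasi-likelihood test, Benjamini-Hochberg adjustment over 17564 genes), with DESeq2 1.42.0, the tool of the study, as an alternative. The procedure was also run on simulated counts. These had less spread between replicates than the tested members had in ESCs, so that run does not bear on the members' calls. Fitted log2 fold changes used a prior count of 0.125. The SE given with them is the absolute log2 fold change divided by the square root of the test's F statistic. It is thus derived from the same test as the p-value and is no separate estimate of spread. A gene with 3 counts or fewer in both libraries of a cell type was taken as at the floor, and its fold as a bound against 3 counts per library. Library totals were 19234087 and 25356382 in ESCs and 20793224 and 24323762 in NECs. The PIR of a contact is its end away from the bait. Contacts of 2 baits entered the list of each bait that called them. GENCODE on GRCh37 gave exon lengths and gene starts. Other steps used Python 3.11.15, numpy 2.4.6, pandas 2.3.3, scipy 1.17.1 and matplotlib 3.10.9.

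Named are all members, the called genes and the extremes of the pathway, germ layer, paralogue and neural lists, the top PIR of each promoter in each merged list, PIRs called in both replicates of a cell type and neither of the other (other PIRs called in both replicates of a cell type are mostly given by count), contacts with listed genes and the promoter most alike in PIRs. The values of 1 gene of the neural list are not reported here. Marker lists for pluripotency, neuroectoderm, neural crest, and trophoblast and amnion are given by count or sum. Of the crest genes 6 of 10 were called higher in NECs and 1 lower, and of the 4 trophoblast and amnion genes tested 1 higher and 2 lower. The replicates are labelled as biological, and p-values measure the spread between these samples. Alternatives were other scalings, filters, thresholds and scores, the replicate number as a block, and leaving out each replicate.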

Additional observations from a re-analysis of the deposited data

How the results depend on the processing

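The log2 fold change of each tested member kept its sign in all 90 alternative fits. Both ESC libraries lay above both NEC libraries for each of these genes, so leaving out a library could hardly turn a sign. The kept signs are therefore no separate support for the direction. Calls were lost in 6 of the 90 fits: for T, SOX17, FOXA2 and LHX1 without ESC replicate 2, and for T and SOX17 without NEC replicate 2. GATA6 was called in 5 of its alternatives (DESeq2's size factors, DESeq2's test, no filter on low counts, the block, and without ESC replicate 1). Leaving out 1 library at a time gave 4 to 9 members called lower, and a median of -2.70 to -1.35. An adjusted p alone, without the fold threshold, gave 5529 genes higher and 5209 lower in NECs, 3 pathway genes higher and 3 mesoderm genes lower.

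List medians rest on few genes and moved with the filter. Without a filter, the other endoderm genes had a median of 0.27, the mesoderm genes of 0.10 with 2 called higher, the paralogues of 1.64 and the neural genes of 5.32; with at least 1 CPM in 2 libraries the endoderm median was 1.71 and that of the paralogues 2.47. The paralogue median was 0.96 with DESeq2's size factors and 1.04 with library size alone, and that of the neural genes 4.99 with genes at the floor set to their bound. Leaving out 1 library gave medians of -0.91 to -0.17 for the pathway genes, -0.34 to -0.0396 for the endoderm genes, -0.86 to -0.68 for the mesoderm genes, 0.94 to 1.00 for the paralogues and 5.23 to 7.88 for the neural genes.

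With the replicate number as a block, 9 members were called lower (GATA6 at -1.66, edgeR adjusted p = 0.0284), and 1987 and 1711 of all genes were called higher and lower. The labels do not say that the numbers pair the libraries, and the deviations of same-numbered libraries had r = 0.061 over 17564 genes.

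At a score of at least 15 the member PIRs were 61 in ESCs and 68 in NECs, 44 were shared, 6 were in all 4 replicates, 1 was replicated in NECs alone, and the NEC median distance was 218 kb. With single replicates in place of the merged lists, there were 89 to 107 PIRs in ESCs, 77 to 104 in NECs and 46 to 67 shared, at medians of 274 to 287 kb in ESCs and 273 to 289 kb in NECs. Requiring absence from the other merged list left 3 replicated contacts in ESCs alone and 4 in NECs alone.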

Other observations

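Among the genes outside the lists, chosen after their values were seen, several with a known part at the streak or organiser shared the split between the ESC libraries. FGF17, a fibroblast growth factor of the streak, was at 5.51 CPM in ESC replicate 1 and 18.8 CPM in ESC replicate 2, and CHRD, the BMP antagonist chordin, was counted 22 and 100 times. In NECs FGF17 was at 1.92 and 0.649 CPM, whereas CHRD was counted 406 and 442 times. DKK1, a Wnt antagonist, was at 1.70 and 4.61 CPM in the ESC replicates and at 9.41 and 4.01 CPM in the NEC replicates.

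At the other end, also chosen after their values were seen, genes higher in ESC replicate 1 included DDIT4, an inhibitor of mTORC1 (146 and 11.5 CPM in ESC replicates 1 and 2), SLC16A3, a lactate transporter (133 and 13.1 CPM), BHLHE40, a transcriptional repressor (53.0 and 5.66 CPM), and NDRG1 (32.5 and 5.82 CPM). Of 17564 genes, 0.791% were lower in ESC replicate 2 by more than 1 in log2(CPM + 0.5). The part of these differences in the levels of the members was not tested.

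The bait of POU4F3 called the HAND1 fragment over 8140 kb in both ESC replicates (16.67 and 13.83) and in the merged ESC list (13.18), and in no NEC list.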
